A study of Mus musculus with 12 samples.

Results

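The genes described here encode the subunits, activators and assembly chaperones of the proteasome. They were taken from the deposited expression table of postnatal day 3 by symbol, as protein-coding genes of the Psma, Psmb, Psmc, Psmd, Psme, Psmf and Psmg families, with the immunoproteasome genes Psmb8 and Psmb9 left out. The symbols matched 49 of the 31091 genes in the table. Psmc3ip and Psme3ip1 carry proteasome symbols but encode binding partners of subunits, so they were set aside, which left 47 genes: 17 of the 20S core, 20 of the 19S regulatory particle, and 10 activators, inhibitors and assembly chaperones. Neither partner was called at an adjusted p under 0.05 (limma; Psmc3ip 0.0623, Psme3ip1 0.634), and with them limma's counts as reported below were the same, while the authors' deposited table called 26 of 47 genes lower in place of 25 of 45.

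The proteasome is the main ATP-dependent protease of the cytosol and nucleus. Its barrel-shaped 20S core is a stack of alpha and beta rings, and only 3 of the constitutive beta subunits, encoded by Psmb5, Psmb6 and Psmb7, have a catalytic site. The 19S particle recognises ubiquitin chains, removes them and unfolds the substrate with a ring of ATPases (Psmc genes), while Psmd genes encode its receptors, deubiquitinase, scaffold and lid. In granule cell progenitors, the dividing cells that give rise to cerebellar granule neurons, the proteasome is known for the turnover of cell cycle proteins and of transcription factors such as Atoh1 and the Gli factors.

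The 6 libraries were made from granule cell progenitors isolated at postnatal day 3 from Znhit3 conditional knockout (cKO) mice and from WT mice, which the titles call control, with 3 libraries per group. Znhit3 encodes a zinc finger protein of small nucleolar ribonucleoprotein assembly. The labels name neither the Cre driver nor the floxed allele, nor whether the WT mice carried either, and nothing says whether each library came from 1 animal or from a pool, so p-values measure the spread between these libraries. Samples of postnatal day 6 are listed for the series and were not analysed here. The cKO columns of the table carry a code that the labels do not spell out, and they were assigned to cKO because the remaining columns are named WT.

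The libraries held 37514556, 40281292 and 29119803 counted reads in cKO and 40714149, 32278245 and 52961445 in control. Znhit3 had 4.03, 4.01 and 4.57 FPKM (fragments per kilobase of gene length, scaled to library depth) in cKO, against 9.15, 8.62 and 8.58 FPKM in control, so that cKO retained 47.8% of the control mean (log2 difference -0.91 ± 0.06 SE, limma adjusted p = 0.000244). These values cover the whole gene, and the labels do not say which exons the deletion removes. Over libraries alone, 3 against 3 cannot go below an exact two-sided permutation p of 0.1, which Znhit3 reached. Markers of other cells moved with the groups. Calls here are at a limma adjusted p under 0.05, where 13.4% of all tested genes were higher and 5.74% lower. In endothelium 8 of 8 markers were higher in cKO (summed level 230 to 246 FPKM in cKO and 129 to 141 FPKM in control). Of 7 markers of GABAergic interneurons 6 were higher and 1 lower (104 to 112 FPKM in cKO and 81.0 to 87.3 FPKM in control). Of 8 microglial markers 5 were higher (231 to 272 FPKM in cKO and 196 to 200 FPKM in control). Of 6 tested choroid plexus markers 4 were lower and 1 higher (647 to 724 FPKM in cKO and 1355 to 1441 FPKM in control). That sum includes the untested Kl and was mostly Ttr (614 to 692 FPKM in cKO and 1314 to 1401 FPKM in control). Among granule progenitor markers, 3 of 8 were lower (822 to 875 FPKM in cKO and 1024 to 1111 FPKM in control), and no marker in these lists was at 0 in any library. The part of these shifts in the proteasome values was not tested, and in bulk RNA fewer cells of a type and less RNA per cell cannot be told apart.

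Some proteasome transcripts were slightly lower in cKO progenitors, and most did not pass the test. Of the 44 proteasome genes that averaged 1 FPKM or more, 11 (25%) were called lower and 1 (2.3%) higher in cKO at an adjusted p under 0.05 with limma on log2(FPKM + 1), and 32 were not called. Over all 13538 genes tested the shares were 5.74% lower and 13.4% higher. The 44 differences ranged between -0.31 and 0.17 on the log2 scale, and 35 of 44 were negative, against 42.1% of all tested genes. Their median was -0.12, against 0.03 over all tested genes, a comparison that is not matched for level. At 30 to 60 FPKM the median was -0.13 for proteasome genes and -0.06 for all genes. In 17 of 44 every cKO value lay below every control value (13.2% of all tested genes), and in 2, Psmd5 and Psmd11, every cKO value lay above (27.3%). The sizes were small: the largest fall, of Psmb4, was 19.4% of the control mean. The 3 genes below 1 FPKM, Psma8, Psmb11 and Psme2b, were not tested.

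The count of genes called lower rested on every library. It was 11 with all libraries, 6 without cKO replicate 1, 1 without cKO replicate 2, 3 without cKO replicate 3, 6 without control replicate 1, 1 without control replicate 2 and 2 without control replicate 3. The share of all tested genes called lower, 5.74% with all libraries, was then between 2.57% (without cKO replicate 2) and 5.18% (without cKO replicate 1), and the proteasome median stayed between -0.13 and -0.09. With quantile normalization 1 proteasome gene was called lower, and with values rescaled to TPM 3 were. The proteasome median was -0.07 with quantile normalization and -0.08 with TPM, against -0.0027 and 0.0768 over all tested genes. Over all 13538 genes, 1083 were higher and 823 lower with quantile normalization, against 1813 higher and 777 lower as reported. With TPM 2289 were higher and 522 lower, but of 17371 genes, since more genes then passed the filter, so the scaling and the set of genes changed together. Each of the 12 called genes kept its direction in all 18 refits, of which 12 changed a setting and 6 left out a library. Changing only the filter, the gene set or the intensity trend, or adding the replicate block, leaves the difference itself unchanged. The sign could not turn in those refits, and the genes were picked by their calls in these same libraries.

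**Figure D1:**
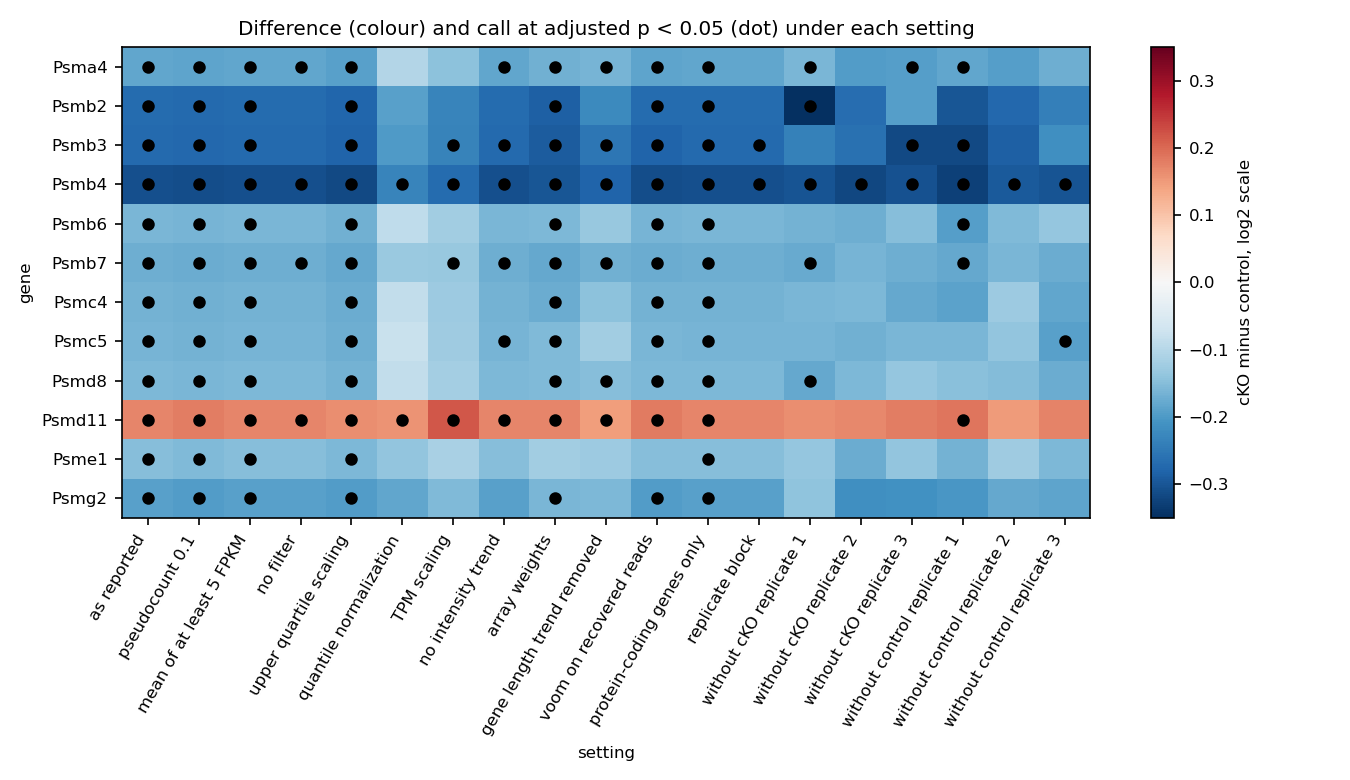
Log2 difference (cKO minus control, colour) of the 12 called proteasome genes, one gene per row, as reported and under each changed setting or left-out library in the columns; a dot marks adjusted p under 0.05. Every row keeps 1 colour throughout, blue for lower and red for Psmd11. The dots thin out where libraries are left out. They also thin out under several changed settings, among them no filter, quantile normalization, TPM scaling and the replicate block. Psmb4 keeps its dot in every column.

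**Figure D2:**
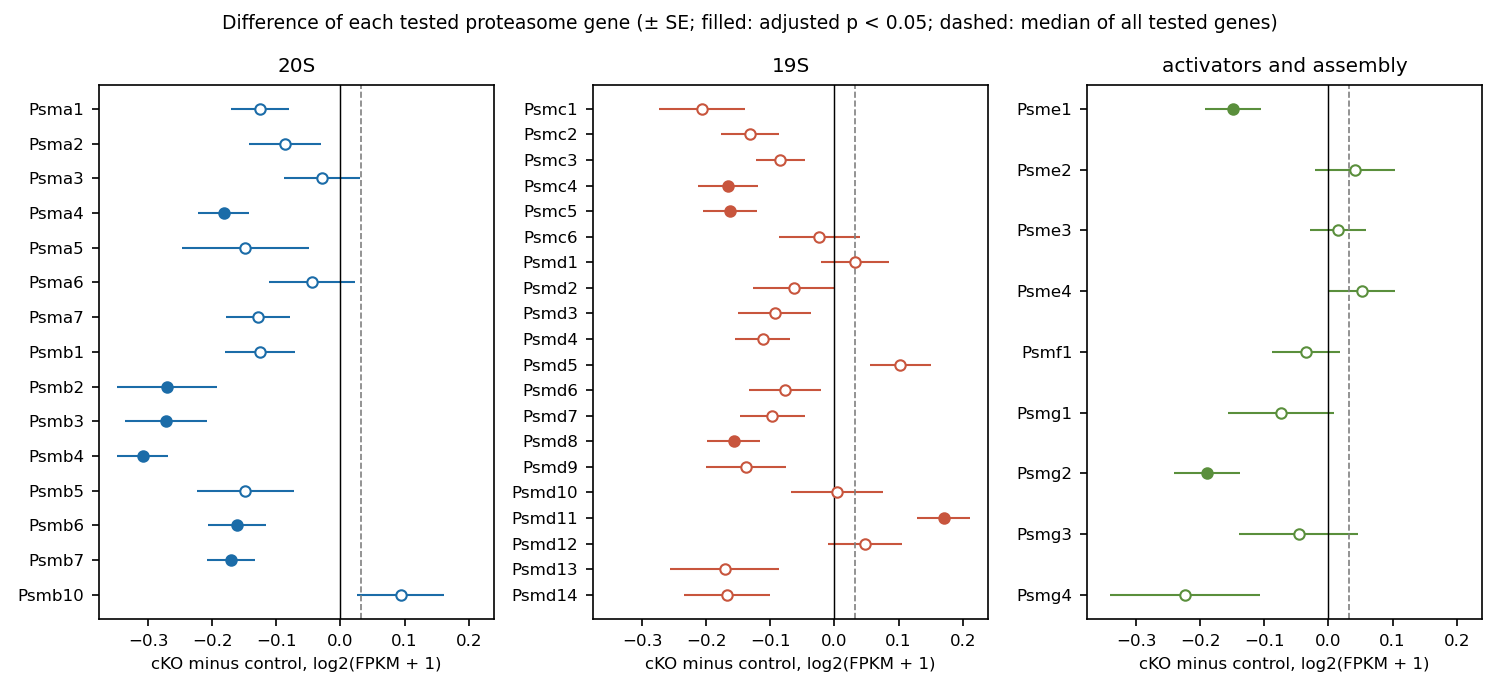
Log2 difference (cKO minus control, limma on log2(FPKM + 1), with SE) of each of the 44 tested proteasome genes, by sub-assembly; filled points mark adjusted p under 0.05. Of the 20S genes 14 of 15 lie below 0, while the 19S genes and the activators and assembly genes spread to both sides.

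Promoter windows of 300 bases (250 before and 50 after the start of the gene, RefSeq, GRCm38.p6) were found for 39 of the 47 genes. The windows of 4 called genes are shown to let the most firmly lower gene (Psmb4), a pair of further lower beta ring genes (Psmb3 and Psmb6) and the only higher gene (Psmd11) be compared. Capitals mark matches to the searched motifs.
Psmb4, chr3:94886909-94887208, minus strand: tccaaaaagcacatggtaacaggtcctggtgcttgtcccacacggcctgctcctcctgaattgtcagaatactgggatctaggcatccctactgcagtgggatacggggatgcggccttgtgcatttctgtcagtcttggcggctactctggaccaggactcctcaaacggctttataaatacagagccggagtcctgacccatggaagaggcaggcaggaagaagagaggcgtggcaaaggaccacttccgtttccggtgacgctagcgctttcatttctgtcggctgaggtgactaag
Psmb3, chr11:97703184-97703483, plus strand: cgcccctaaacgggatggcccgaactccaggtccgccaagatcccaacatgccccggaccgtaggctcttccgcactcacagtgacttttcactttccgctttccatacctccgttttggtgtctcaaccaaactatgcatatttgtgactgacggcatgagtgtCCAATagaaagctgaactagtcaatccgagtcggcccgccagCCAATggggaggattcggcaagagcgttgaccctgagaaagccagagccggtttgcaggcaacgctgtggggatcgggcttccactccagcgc
Psmb6, chr11:70525107-70525406, plus strand: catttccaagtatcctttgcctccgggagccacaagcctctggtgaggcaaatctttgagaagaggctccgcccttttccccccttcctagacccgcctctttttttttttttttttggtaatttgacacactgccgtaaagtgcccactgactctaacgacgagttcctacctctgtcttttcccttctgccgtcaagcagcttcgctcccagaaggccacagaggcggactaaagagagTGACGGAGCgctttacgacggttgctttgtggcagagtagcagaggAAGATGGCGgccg
Psmd11, chr11:80428365-80428664, plus strand: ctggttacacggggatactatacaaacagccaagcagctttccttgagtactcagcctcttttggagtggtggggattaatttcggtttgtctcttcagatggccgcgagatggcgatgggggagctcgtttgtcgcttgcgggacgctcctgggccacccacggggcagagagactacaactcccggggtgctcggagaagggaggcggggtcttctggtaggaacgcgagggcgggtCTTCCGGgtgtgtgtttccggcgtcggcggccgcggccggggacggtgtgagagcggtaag
Both strands were searched for the core of the antioxidant response element bound by NFE2L1 and NFE2L2 (TGACNNNGC), the CCAAT box (CCAAT), an ETS core (CCGGAAG), the E box (CACGTG), the core of the site of nuclear respiratory factor (GCATGCGC) and a YY1 core (AAGATGGCG). The Psmb4 window held no match, the Psmb3 window held 2 CCAAT boxes, the Psmb6 window held the antioxidant core and the YY1 core, and the Psmd11 window held the ETS core on the reverse strand. No matches overlapped within these 4 windows.

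The 39 genes had 42 windows, and a gene was counted if any of its windows held a match. Among the 39, the ETS core was found in 14 genes (35.9%), against 9.93% of 27025 genes with a RefSeq window. That background was not limited to tested genes. Of 9 called genes with a window, 1 held it, and that gene was Psmd11. The antioxidant core was found in 6 of the 39 (15.4%; Psmb5, Psmb6, Psmc6, Psmd9, Psmd12 and Psme4), against 13.99% of all genes, and Psmb6 was the called gene among them. The CCAAT box was found in 13 (33.3%, against 41.06%), the E box in 4 (10.3%, against 8.09%), the respiratory factor core in 3 (7.69%, against 3.05%) and the YY1 core in Psmb6 and Psmc5 (5.13%, against 1.64%). The proteasome windows had a median GC content of 57.3%, against 52.7% of all windows. A match describes letters in a window and not a bound site.

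In the beta ring of the core, Psmb1 to Psmb7, 5 of 7 genes were called lower, all 7 differences were negative and their median was -0.17. Psmb4, which encodes a non-catalytic beta subunit whose yeast counterpart helps core precursors to join, had 91.9, 93.7 and 92.0 FPKM in cKO, against 112, 117 and 116 FPKM in control. The 3 cKO values lay close together and well below every control value. Its log2 difference was -0.31 ± 0.04 (SE; adjusted p = 0.00266), and it was the only proteasome gene called in all 18 refits, with adjusted p between 4.89e-05 and 0.0165.

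Psmb3, another non-catalytic subunit, had 56.1, 58.1 and 62.7 FPKM in cKO, against 67.1, 69.9 and 77.3 FPKM in control. The groups were apart although each spread over more than 6 FPKM (-0.27 ± 0.06, adjusted p = 0.0251). Its call was lost without cKO replicate 1, cKO replicate 2, control replicate 2 or control replicate 3 (adjusted p = 0.0596, 0.0864, 0.0633 and 0.0646). Psmb2, a structural subunit of the same ring, had 94.8, 84.2 and 76.1 FPKM in cKO, against 98.4, 102 and 107 FPKM in control. Its cKO replicate 1 came near the lowest control value, and its error was the widest among the called genes (-0.27 ± 0.08, adjusted p = 0.0461). The call for Psmb2 held in 6 of 12 changed settings and, with a library left out, only without cKO replicate 1 (adjusted p = 0.0147, and 0.0669 to 0.123 without each other library).

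Of the 3 catalytic genes, 2 were called lower. Psmb7, which encodes the trypsin-like subunit, had 33.1, 32.4 and 32.8 FPKM in cKO, against 36.6, 37.6 and 36.9 FPKM in control (-0.17 ± 0.04, adjusted p = 0.0188). Psmb6, the caspase-like subunit, had 93.1, 93.9 and 91.0 FPKM in cKO, against 99.1, 105 and 108 FPKM in control (-0.16 ± 0.05, adjusted p = 0.0421). In both genes every cKO value was under every control value. The call for Psmb7 was lost without cKO replicate 2, cKO replicate 3, control replicate 2 or control replicate 3 (adjusted p = 0.086, 0.0527, 0.0647 and 0.053), and that for Psmb6 held only without control replicate 1 (adjusted p = 0.0338, and 0.0696 to 0.118 without each other library). Psmb5, the chymotrypsin-like subunit, had 50.6, 56.3 and 51.1 FPKM in cKO, against 52.7, 58.9 and 64.3 FPKM in control. Its groups overlapped, since cKO replicate 2 exceeded control replicate 1, and it was not called (-0.15 ± 0.08, adjusted p = 0.199). In the authors' deposited table Psmb5 had an adjusted p of 0.0455 and all 7 beta ring genes were lower.

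**Figure D3:**
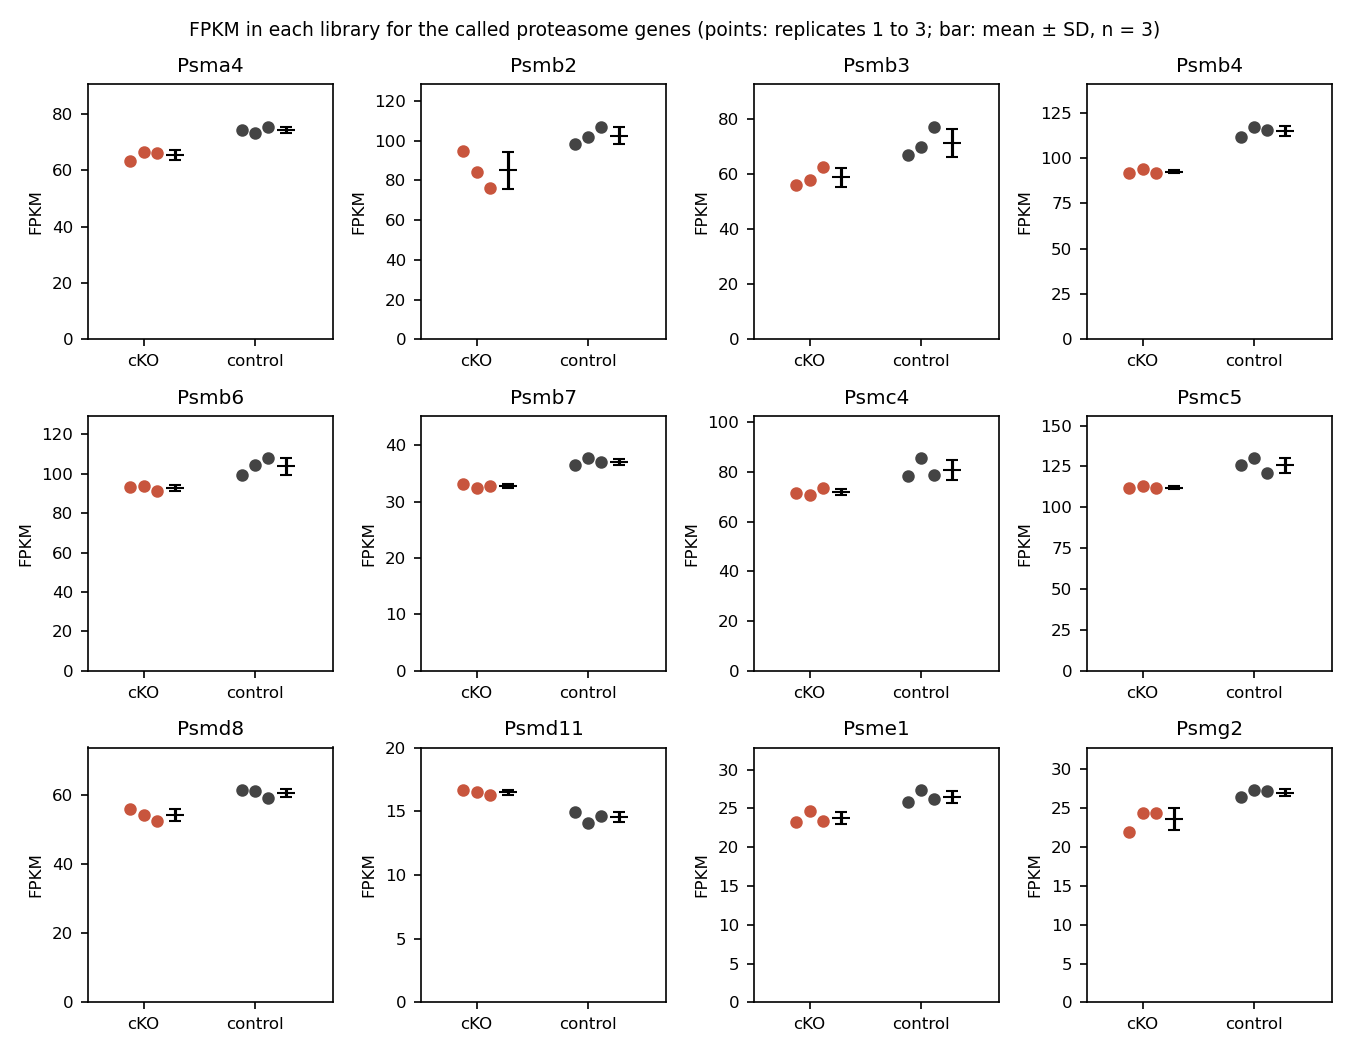
FPKM in each library of the 12 proteasome genes called at an adjusted p under 0.05, with the mean and SD (n = 3 per group). In all 12 the cKO and control values do not overlap; 11 are lower in cKO and Psmd11 is higher.

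In the alpha ring, whose subunits gate the entry to the core, all 7 differences of Psma1 to Psma7 were negative with a median of -0.13, and 1 gene was called lower. That gene, Psma4, had 63.4, 66.7 and 66.4 FPKM in cKO, against 74.4, 73.4 and 75.5 FPKM in control, with a clear gap between the groups (-0.18 ± 0.04, adjusted p = 0.0199). The call was lost without cKO replicate 2, control replicate 2 or control replicate 3 (adjusted p = 0.0643, 0.0507 and 0.062). Psma6, the most abundant core transcript per length, had 131, 150 and 151 FPKM in cKO, against 151, 154 and 140 FPKM in control. Those groups overlapped and differed by -0.04 (adjusted p = 0.669), and cKO replicate 1 alone was below all others. Psma5 showed the same layout, with 69.3, 92.1 and 86.4 FPKM in cKO and 91.8, 95.4 and 86.0 FPKM in control (adjusted p = 0.318).

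Summed over the ring, alpha transcripts gave 441, 495 and 495 FPKM in cKO, against 513, 529 and 494 FPKM in control. The 2 higher cKO sums overlapped the lowest control sum. Beta ring transcripts gave 452, 454 and 442 FPKM in cKO, against 502, 530 and 546 FPKM in control, and these did not overlap (449 ± 6.12 in cKO and 526 ± 22.3 in control, SD, n = 3 each; 14.6% lower). For the alpha ring the difference of the means was 6.86%. The difference between the rings was not tested. Transcript levels of the 14 constitutive core genes, whose products occupy the core in equal number, spanned 4.19-fold per length, with Psmb7 lowest and Psma6 highest.

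The specialised core genes were scarce. Psmb10 encodes the interferon-induced subunit that replaces the Psmb7 product, and it was the only tested core gene with a positive difference: 7.13, 7.75 and 6.99 FPKM in cKO, against 6.17, 7.36 and 6.80 FPKM in control, overlapping and not called (0.09 ± 0.07, adjusted p = 0.355). As a share of Psmb7 per length, Psmb10 reached 21.5%, 23.9% and 21.3% in cKO, against 16.9%, 19.6% and 18.4% in control. These ratios did not overlap, and they join a lower Psmb7 with a Psmb10 that was not called. Psmb8 and Psmb9, the other immunoproteasome genes, averaged 0.501 and 0.589 FPKM in cKO, against 0.434 and 0.417 FPKM in control, too low to be tested.

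Psma8, the testis counterpart of Psma7, had 0.267, 0.219 and 0.193 FPKM in cKO, against 0.522, 0.447 and 0.182 FPKM in control, on 14 to 53 reads per library. The groups overlapped through control replicate 3. Psmb11, the subunit of thymic epithelium, had 0, 0.0259 and 0.0502 FPKM in cKO, against 0.041, 0.0129 and 0.0079 FPKM in control. With 0 to 8 reads per library it was at the limit of detection, and the 0 in cKO replicate 1 allows up to 0.0167 FPKM (3 reads, counting error only).

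**Figure D4:**
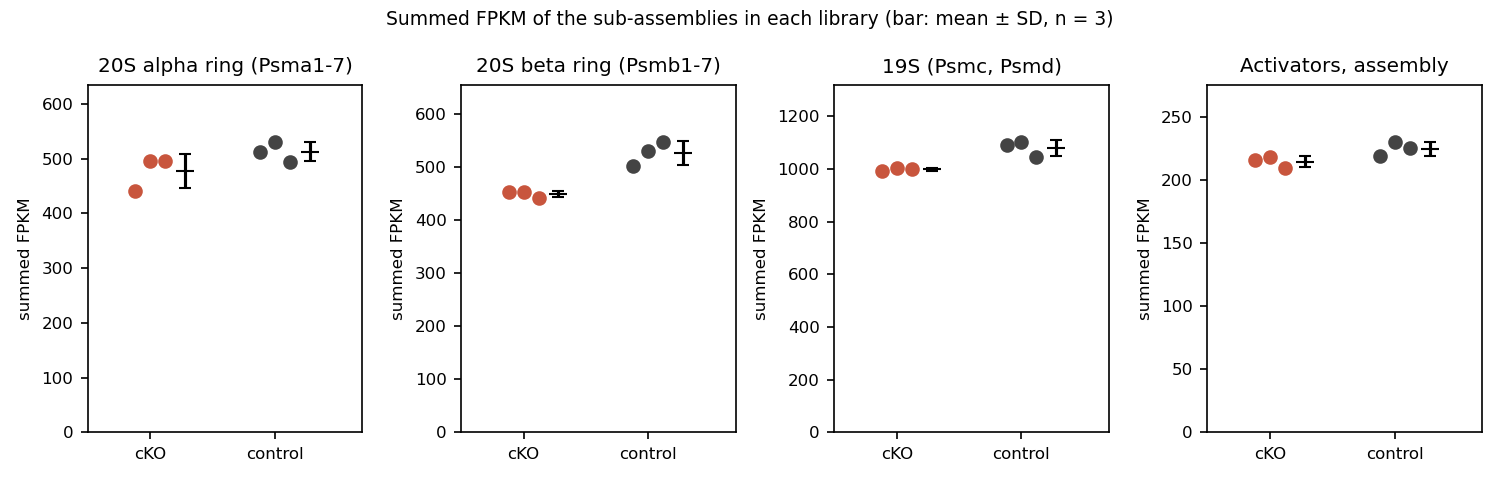
Summed FPKM of the alpha ring, the beta ring, the 19S genes and the activators and assembly genes in each library, with mean and SD (n = 3 per group). The sums of the beta ring, the 19S genes and the activators and assembly genes lie below all control sums in cKO, the last by a narrow gap (218 against 219 FPKM), whereas those of the alpha ring overlap.

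Among the 20 genes of the 19S particle, 3 were called lower and 1 higher, with a median of -0.10. The 6 ATPase genes were all negative with a median of -0.15, and in 5 of the 6 every cKO value was below every control value. Of all tested genes 13.2% had that layout. Psmc5 had 112, 113 and 112 FPKM in cKO, against 126, 130 and 121 FPKM in control (-0.16 ± 0.04, adjusted p = 0.0343). Psmc4 had 71.4, 70.9 and 73.3 FPKM in cKO, against 78.2, 85.4 and 78.8 FPKM in control (-0.17 ± 0.05, adjusted p = 0.0439). The cKO values of both ATPase genes were tighter than the control values.

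Psmc1, the most abundant 19S transcript per length, had 125, 108 and 111 FPKM in cKO, against 141, 126 and 129 FPKM in control. The difference was larger than that of either called ATPase gene and the groups were apart, but the spread within groups was wider and the gene was not called (-0.21 ± 0.07, adjusted p = 0.0657). The call for Psmc4 was lost whichever library was left out (adjusted p = 0.054 to 0.143), and that for Psmc5 held only without control replicate 3 (adjusted p = 0.0421, and 0.0627 to 0.108 without each other library).

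The 14 Psmd genes went both ways, with 9 negative and 5 positive differences. Psmd8, a lid subunit, had 55.9, 54.1 and 52.5 FPKM in cKO, against 61.4, 61.1 and 59.2 FPKM in control, with no overlap (-0.16 ± 0.04, adjusted p = 0.0363). With a library left out, its call held only without cKO replicate 1 (adjusted p = 0.036, and 0.0636 to 0.119 without each other library). Psmd11, a lid subunit that clamps the 19S particle to the core, was the only proteasome gene called higher, with 16.7, 16.6 and 16.3 FPKM in cKO, against 14.9, 14.1 and 14.7 FPKM in control. Each cKO value exceeded each control value (0.17 ± 0.04, adjusted p = 0.0272). The call held in 11 of 12 changed settings but, with a library left out, only without control replicate 1 (adjusted p = 0.0405, and 0.0573 to 0.0965 without each other library), and the authors' deposited table gave Psmd11 a log2 fold change of 0.126 and an adjusted p of 0.0672.

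Psmd14, the deubiquitinase that trims ubiquitin from substrates at the pore, averaged 41.7 ± 2.55 FPKM in cKO and 46.9 ± 3.50 FPKM in control (SD, n = 3 each; adjusted p = 0.114). Psmd4, a ubiquitin receptor, averaged 54.2 ± 1.59 FPKM in cKO and 58.7 ± 1.60 FPKM in control, without overlap but not called (adjusted p = 0.102). The scaffold genes Psmd1 and Psmd2 overlapped, with adjusted p of 0.703 and 0.519. Sem1, a small lid subunit outside the symbol rule, was called lower, at 17.5 ± 0.92 FPKM in cKO and 20.8 ± 1.15 FPKM in control (-0.23 ± 0.06, adjusted p = 0.0259). Its call was lost without cKO replicate 1, cKO replicate 2, control replicate 2 or control replicate 3 (adjusted p = 0.0608, 0.0911, 0.0802 and 0.0688). Adrm1, the remaining ubiquitin receptor with another name, was not called (24.8 FPKM in cKO and 27.7 FPKM in control, adjusted p = 0.0946).

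The base chaperones Psmd5, Psmd9 and Psmd10 help assemble the ATPase ring and leave the finished particle. Psmd5 had 10.8, 10.1 and 10.0 FPKM in cKO, against 9.62, 9.73 and 9.17 FPKM in control, so that all cKO values were above the control values, without a call (0.10 ± 0.05, adjusted p = 0.161). Psmd9, the lowest 19S gene per length, averaged 6.07 FPKM in cKO and 6.78 FPKM in control (adjusted p = 0.154). Psmd10 averaged 17.0 FPKM in both groups (adjusted p = 0.972). None of the 3 passed limma's threshold, none had an unadjusted p under 0.05, and 1 of them was lower in the authors' deposited table.

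Summed 19S transcripts gave 994, 1005 and 1002 FPKM in cKO, against 1093, 1101 and 1046 FPKM in control. The sums did not overlap, and the difference was 7.39% of the control mean.

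Of the 9 tested activators, inhibitors and assembly chaperones, 2 were called lower, with a median of -0.05. Psme1 encodes a subunit of the interferon-linked cap that opens the core without ATP, and had 23.3, 24.6 and 23.4 FPKM in cKO, against 25.8, 27.4 and 26.2 FPKM in control (-0.15 ± 0.04, adjusted p = 0.0489). Its partner in that cap, Psme2, had 25.04, 23.8 and 23.1 FPKM in cKO, against 21.2, 24.0 and 24.7 FPKM in control, overlapping in part (0.04 ± 0.06, adjusted p = 0.667). The Psme2 to Psme1 ratio per length was 107.5%, 96.8% and 98.9% in cKO, against 82.2%, 87.7% and 94.5% in control. Those ratios did not overlap, and they join a lower Psme1 with a Psme2 that was not called. Psme2b, a copy of Psme2, had 11 to 27 reads per library, and reads of such copies may be split between them.

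Psme3, the nuclear activator and the most abundant of these transcripts per length, averaged 68.2 ± 2.58 FPKM in cKO and 67.5 ± 0.94 FPKM in control (adjusted p = 0.832). Psme4, which caps the core in chromatin-linked roles and in testis, averaged 18.8 FPKM in cKO and 18.1 FPKM in control (adjusted p = 0.497), and Psmf1, named as an inhibitor of the core, 7.46 FPKM in cKO and 7.67 FPKM in control (adjusted p = 0.674). Of the 4 Psmg chaperones of alpha ring assembly all differences were negative. Psmg2 was called, with 21.9, 24.4 and 24.3 FPKM in cKO, against 26.4, 27.3 and 27.2 FPKM in control and no overlap (-0.19 ± 0.05, adjusted p = 0.038). Psmg1, which pairs with Psmg2, averaged 20.6 FPKM in cKO and 21.8 FPKM in control (adjusted p = 0.557). Psmg4 differed by -0.22 ± 0.12 but with a wide error (26.0 FPKM in cKO and 30.6 FPKM in control, adjusted p = 0.21), and Psmg3, the lowest, averaged 1.72 FPKM in cKO and 1.80 FPKM in control (adjusted p = 0.752). The calls for Psme1 and Psmg2 were lost in each refit that left out a library (adjusted p = 0.0656 to 0.14 and 0.0584 to 0.106).

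The authors' deposited table called 25 of 45 proteasome genes lower in cKO and none higher, against 11.6% lower and 11.4% higher of its 16021 genes. Both totals count only genes with an adjusted p under 1, which leaves out Psmb11 and Psme2b. Its baseline was lower, with a median log2 fold change of -0.0154 over the genes tested with limma, against 0.0324 with limma. All 11 genes that limma called lower were among the 25. By sub-assembly the deposited table called 11 of 16 core genes, 12 of 20 genes of the 19S particle and 2 of 9 activators and assembly genes lower. Of the 24 genes with a negative difference that limma did not call, 14 were lower there. With limma, 17 proteasome genes had an unadjusted p under 0.05 and a negative difference, and 1 a positive one.

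Proteasome genes differ from most tested genes in level and length. Their median was 44.7 FPKM and 2804 bases, against 7.28 FPKM and 4219 bases over all tested genes. Length here is the deposited length behind the FPKM values, headed Length_CDS, and not the genomic span. Psmd14, for example, has 2820 bases by that length and lies between positions 61542038 and 61630720. The share of all genes called lower grew with level, being 3.04% at 1 to 10 FPKM, 6.85% at 10 to 30, 12.43% at 30 to 60, 17.73% at 60 to 100 and 23.69% from 100 FPKM. Among proteasome genes the counts called lower in these bins were 0 of 5, 2 of 10, 2 of 15, 5 of 10 and 2 of 4. The median difference over all genes in these bins was 0.0752, 0.0022, -0.0564, -0.0646 and -0.1123. Over proteasome genes it was -0.0349, -0.0344, -0.1255, -0.1548 and -0.1847. At 30 to 60 FPKM, the range with the most proteasome genes, their count was near the share of all genes, and at 60 to 100 FPKM, where Psmb2, Psmb3, Psmb6, Psmc4 and Psma4 lay, it was above it.

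Length moved with the differences as well. Genes under 1000 bases were called lower in 7.12% of all cases and 0 of 2 proteasome cases, so the share did not fall steadily with length. Genes of 1000 to 2000 bases were called lower in 11.61% of all cases and 5 of 12 proteasome cases, those of 2000 to 3000 bases in 8.29% and 4 of 13, and those of 3000 to 5000 bases in 5.48% and 2 of 10. Of the 7 proteasome genes of at least 5000 bases, 3 had a negative difference and Psmd11 was called higher, whereas 3.18% of all genes of that length were lower. Spearman's rho between the log2 difference and length was 0.392 over the 44 proteasome genes and 0.264 over all tested genes, and between the difference and the mean level it was -0.494 over the 44. These genes share the same 6 libraries, and shorter proteasome genes were also the more abundant ones (rho = -0.414). With the length trend of each library removed, 5 proteasome genes were called lower and 1 higher, the median was -0.10 against -0.12 as reported, and 5.3% of all genes were lower.

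**Figure D5:**
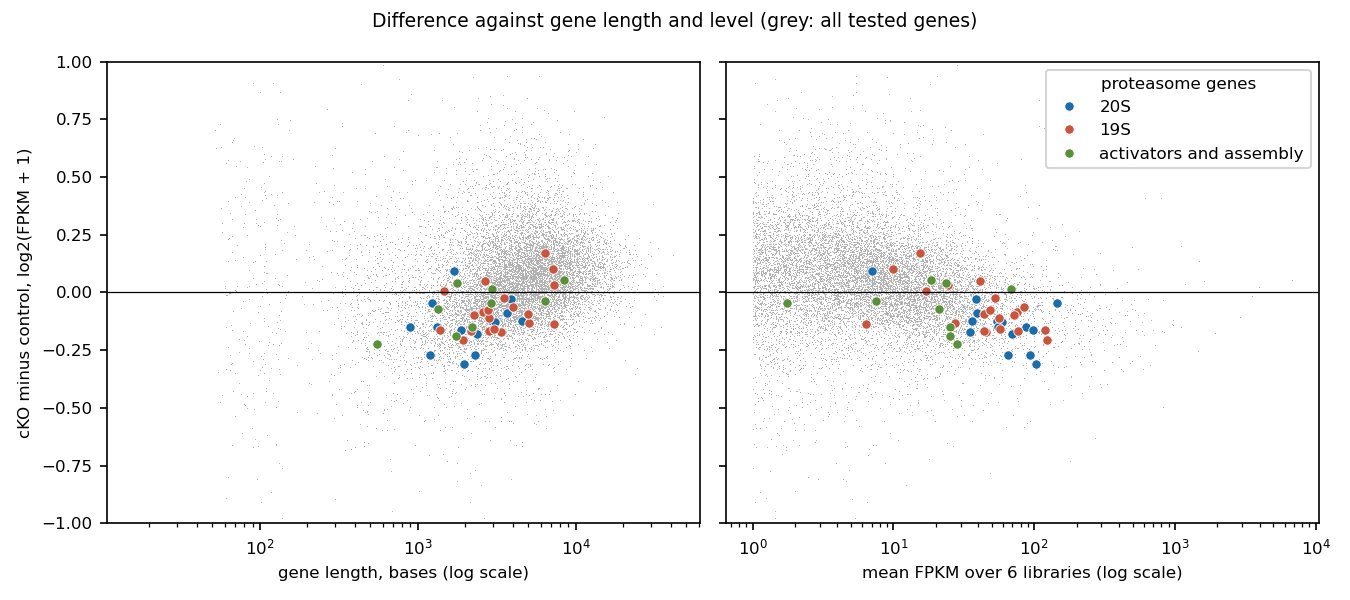
Log2 difference (cKO minus control) against gene length (as deposited, not the genomic span) and against mean FPKM, on log axes. All 13538 tested genes are in grey and the 44 proteasome genes in colour, and 28 genes lie outside the plotted range of -1 to 1. The proteasome genes sit at the abundant end, and the 7 of at least 5000 bases lie on both sides of 0.

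The libraries themselves differed within groups. The median over all tested proteasome genes, relative to the control mean, was -0.13, -0.09 and -0.09 in the cKO libraries and -0.02, 0.03 and -0.03 in the control libraries. Within cKO, replicate 1 held the lowest value of 22 of the 44 genes, replicate 3 of 15 and replicate 2 of 7. The lowest cKO median was thus that of replicate 1, and every cKO median was below every control median.

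Calls among other genes of the ubiquitin-proteasome system went both ways. Of 15 tested proteasome-associated factors, 2 were lower and 1 higher, against 5.74% lower and 13.4% higher of all tested genes. The median of these factors was -0.01. Akirin2, which escorts proteasomes into the nucleus, averaged 51.3 ± 0.69 FPKM in cKO and 60.5 ± 1.62 FPKM in control (-0.23 ± 0.04, adjusted p = 0.00727), and the stress-linked adaptor gene Zfand2b fell by 0.33 on the log2 scale (7.16 FPKM in cKO and 9.23 FPKM in control, adjusted p = 0.00826). Zfand5, an activator of the assembled proteasome, rose by 0.26 (29.3 FPKM in cKO and 24.3 FPKM in control, adjusted p = 0.00991). Paaf1 was listed with this group and was not analysed here.

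Among 8 tested regulators of proteasome gene transcription, 2 were called higher, against 13.4% of all tested genes, so the count was near the background. Nfe2l2, the factor of the oxidative stress response, had 11.5, 12.0 and 10.7 FPKM in cKO, against 8.90, 7.62 and 8.32 FPKM in control (0.42 ± 0.07, adjusted p = 0.00536). The groups were well apart. Ddi2, the protease that activates NFE2L1, averaged 8.37 FPKM in cKO and 7.00 FPKM in control (0.23 ± 0.05, adjusted p = 0.0254), and its call was lost without cKO replicate 2, cKO replicate 3, control replicate 2 or control replicate 3 (adjusted p = 0.0946, 0.0541, 0.0683 and 0.0793). Nfe2l1 itself, the factor that raises proteasome genes when proteasome activity falls short, averaged 28.2 FPKM in cKO and 28.4 FPKM in control (-0.01, adjusted p = 0.835).

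Over all genes, 5.74% were lower and 13.4% higher with limma, and 11.6% were lower and 11.4% higher in the authors' deposited table. Ubiquitin and its activating enzymes gave no calls among 6 tested genes with limma, with 1 at an unadjusted p under 0.05 and 1 lower in the authors' deposited table. The most abundant was Ubb, a polyubiquitin gene, at 663 FPKM in cKO and 779 FPKM in control (-0.23, adjusted p = 0.0563). Vcp, the segregase that delivers substrates to the proteasome, and its cofactors gave no calls among 8 with limma, 2 at an unadjusted p under 0.05 and 3 lower in the authors' deposited table; Vcp averaged 84.9 FPKM in cKO and 86.8 FPKM in control (adjusted p = 0.751). The COP9 signalosome, built on the plan of the 19S lid, had 1 of 10 genes called lower, near the limma share, with a median of -0.10. The authors' deposited table called 4 of the 10 lower. Its catalytic gene Cops5 averaged 35.1 ± 0.86 FPKM in cKO and 40.2 ± 0.16 FPKM in control (-0.19 ± 0.04, adjusted p = 0.0142), a call lost without cKO replicate 2 (adjusted p = 0.0657). Summed levels of the ubiquitin, Vcp and COP9 lists were lower in every cKO library than in any control library. The ubiquitin sum was mostly Ubb (623 to 702 FPKM in cKO and 745 to 842 FPKM in control). In every other gene of that list the groups overlapped. Summed levels of the transcription regulators were higher (70.7 to 73.9 FPKM in cKO and 65.9 to 67.5 FPKM in control), and those of the associated factors overlapped. The regulator sum includes Nfe2l2 (10.7 to 12.0 FPKM in cKO and 7.62 to 8.90 FPKM in control). Hsf1 in the same list went the other way (6.88 to 7.07 FPKM in cKO and 7.30 to 7.88 FPKM in control).

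The 47 proteasome genes lie on 16 chromosomes, and 9 share chromosome 11 with Znhit3. By the positions in the deposited table the nearest to Znhit3 is Psmd11, at 4.44 Mb. The other called genes of that chromosome, Psmb3, Psmb6 and Psmc5, were lower, and each lies more than 12 Mb away.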

How the data were processed

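The authors deposited 1 table for postnatal day 3 with FPKM values per gene and library, and with a mean normalized signal, a log2 fold change with its error, a test statistic (score), p-values and gene length, named as DESeq2 does per the file headers. Per the submitters' processing notes, cutadapt 1.9, HISAT2 2.2.1, StringTie 2.1.6, DESeq2, edgeR and the build mm10 were used, with no roles given. None of the sources used here gives the annotation, the strand setting or the build of the table's positions, so overlapping and antisense genes cannot be told apart. FPKM times length gave whole reads, from which each library's depth was recovered. Tested proteasome genes had 151 to 17263 reads per library (median 5263).

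Genes that averaged 1 FPKM or more in the 6 libraries were tested with limma 3.58.1 (R 4.3.3, intensity trend) on log2(FPKM + 1), cKO against control, with Benjamini-Hochberg adjustment over 13538 genes and a threshold of 0.05. Log2 differences on this scale understate the change of low genes. The procedure was tested on simulated data in which every added change was larger than any difference of the tested proteasome genes. That test therefore does not measure how well differences of the sizes seen here are called. Genes named in the text were the called members, the most abundant and the lowest of each sub-assembly, the catalytic and tissue- or interferon-linked members and the called related genes; Psma5, Psmg1, Psmf1, Psmd1, Psmd2, Psmd4, Psmd5, Psmd10, Psmd14, Adrm1 and Nfe2l1 were added after their values were seen. Members, lists and motifs were chosen with earlier results of these data known. Alternatives covered the pseudocount, filters, scalings, variance models, gene length, voom on the recovered reads, a replicate block and leaving out each library.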

Additional observations from a re-analysis of the deposited data

How the results depend on the processing

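As reported, 11 proteasome genes were lower and 1 higher, with a median of -0.12. The count lower was 3 with no filter on low values, 1 with quantile normalization, 3 with TPM, 5 without the intensity trend and 5 with the length trend removed. It was 1 to 6 with a library left out, where the count higher was 0 to 1. With the length trend removed and cKO replicate 1 left out, a combination chosen after seeing the data, 5 were lower and 0 higher, with a median of -0.083. The median was -0.0745 with quantile normalization and -0.0796 with TPM, against -0.0027 and 0.0768 over all tested genes. The remaining alternatives, voom included, gave 11 to 14 lower and 1 higher. Replicate numbers did not pair the libraries, since the deviations of same-numbered libraries correlated at -0.024, 0.036 and -0.097; with the number as a replicate block 3 proteasome genes were lower and 0 higher, against 469 lower and 1073 higher of all genes. Psme2, not called, turned to -0.0219 without control replicate 1 (adjusted p = 0.791) and ranged up to 0.0843 without control replicate 3. Znhit3 kept its direction and call in all 18 refits. With 3 libraries per group and differences under 0.31, single calls near the threshold depend on the error model and on each library.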
